A study of Mus musculus with 6 samples.

Results

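Sugar breakdown in the newborn mouse pancreas was examined through 38 genes of glycolysis, pyruvate use and the pentose phosphate pathway, taken by name from a fixed list that covers glucose uptake, every step to lactate, the enzymes that set fructose 2,6-bisphosphate, the pyruvate dehydrogenase complex and its kinases, pyruvate carboxylation, and the glycerol phosphate enzymes. All 38 had enough reads to be tested, among 15872 genes tested and 35488 genes with summed reads. Mice of genotype miR-216a-/- (here KO, 3 libraries) lack a microRNA that is abundant in the pancreas, and were set against wild-type animals (WT, 3 libraries). Both groups were C57BL/6 mice at postnatal day 1, the organ was sequenced as a whole, and per the labels every library came from a separate donor mouse, so p-values measure the spread between mice. Sex, litter, batch and how the null allele was made are not stated in the labels used here.

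Glycolysis splits glucose into pyruvate and yields ATP and NADH. Pyruvate is then reduced to lactate by lactate dehydrogenase, oxidised by the mitochondrial pyruvate dehydrogenase complex, or carboxylated to oxaloacetate by pyruvate carboxylase. The pentose phosphate pathway branches off at glucose 6-phosphate and supplies NADPH and ribose for nucleotides. In the beta cells of the pancreas, glycolysis links blood glucose to insulin release, and mature beta cells are known for low lactate dehydrogenase A and high pyruvate carboxylase, while the enzyme-secreting acinar cells make up most of the organ.

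Depth was between 20565387 and 23028718 estimated reads per library. The tissue label held, with the pancreatic amylase gene Amy2a5 at 99063, 133934 and 121284 CPM in KO 1 to 3 and 94296, 65525 and 93847 CPM in WT 1 to 3, and the insulin gene Ins2 at 2116 to 2290 CPM in KO against 2810 to 3371 CPM in WT. CPM here means reads scaled to library size by the trimmed mean of M-values (TMM). Some libraries stood apart. Summed erythroid genes reached 4806 CPM in KO 2 and 5948 CPM in WT 1, against 1707 and 1797 CPM in the other KO libraries and 2706 and 2840 CPM in the other WT libraries. Liver genes summed to 561 CPM in WT 1 and to between 152 and 208 CPM elsewhere. Ttr, at 129 to 195 CPM over all libraries, made up most of the sum outside WT 1. Alb had 219 CPM in WT 1 and 6.41 to 15.1 CPM elsewhere, and Afp had 127 CPM in WT 1 and at most 4.05 CPM elsewhere. The Y-linked gene Ddx3y was near 0 in KO 1 alone, at 0.141 CPM, while the rest of the libraries held at least 61.8 CPM. The loss of miR-216a itself was not analysed here, so genotype was taken from the labels.

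The comparison of KO with WT asked which of these genes differ when miR-216a is missing. The lower values included most of the second, ATP-yielding stage of glycolysis and its outlet to lactate, where Pgk1, Pgam1, Eno1, Pkm and Ldha were each lower by 15.4 to 24.7% in KO, with no overlap between groups. Triosephosphate isomerase (Tpi1), transketolase (Tkt), pyruvate dehydrogenase kinase 3 (Pdk3) and pyruvate carboxylase (Pcx) lay lower as well, and pyruvate dehydrogenase kinase 2 (Pdk2) lay higher. None of these differences passed adjustment over all genes. With edgeR's quasi-likelihood test 0 of 38 members had an adjusted p under 0.05, against 0% of all genes tested, and the smallest adjusted p among them was 0.222.

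Without adjustment, 9 members were lower in KO at p under 0.05, which is 23.7% of the 38 against 6.97% of all genes, and 1 was higher, which is 2.63% against 5.64% of all genes. For 10 members all 3 KO libraries lay under the lowest WT library (26.3%, against 10.3% of all genes), and for 1 member all lay over the highest (2.63%, against 9.06%). The mean was lower in KO for 23 members (against 48.9% of all genes) and higher for 15, and 11 were higher and 27 lower with upper-quartile scaling. The median log2 fold change was -0.06 over the members and 0.01 over all genes tested. Members of a pathway share cells and libraries, so they are not independent observations. In RNA from a whole organ, fewer cells of a type and less RNA per cell cannot be told apart.

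**Figure D1:**
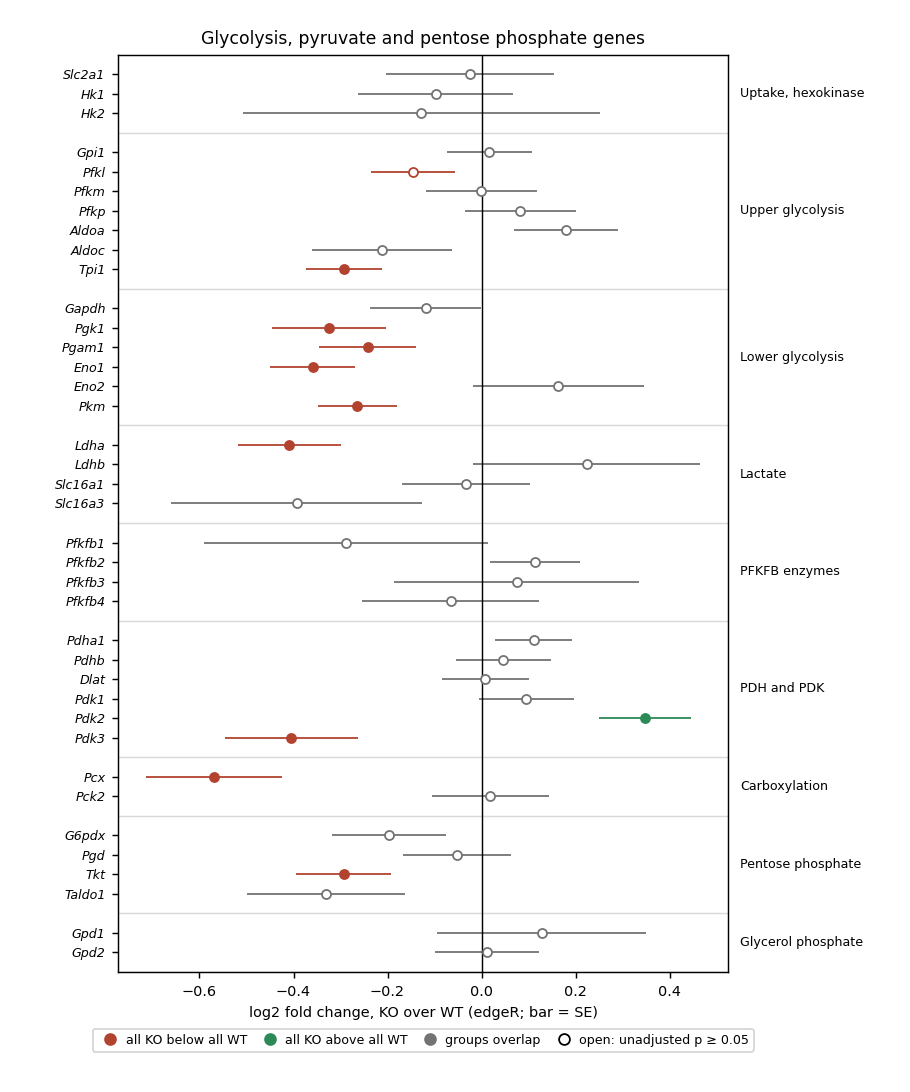
Log2 fold change of each member, KO over WT, from edgeR on the horizontal axis, with members grouped by role down the page. Bars are standard errors, filled points have an unadjusted p under 0.05, and colours mark members whose 3 KO libraries all lie below (red) or above (green) the 3 WT libraries. Filled red points gather in lower glycolysis, and Pdk2 is the 1 green point.

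Genes of this pathway are known for promoters that carry the core of the hypoxia response element, ACGTG or GCGTG, and the overlapping E-box CACGTG. RefSeq start-site windows of 300 bases (250 before the start and 50 after it, build GRCm38.p6) were at hand for 33 members. Counted on both strands, 16 of them held ACGTG (48.5%, against 24.8% of 10783 windows of genes tested), 21 held GCGTG (63.6%, against 50.4%) and 6 held CACGTG (18.2%, against 9.89%). Either core stood in 27 of 33 (81.8%, against 61.6%). Each CACGTG also counts as an ACGTG on both strands. The windows of 3 lower members, one with many matches and the others with few, are shown with both cores in capitals on either strand. They lie at chr7:46845554-46845853 for Ldha, chr4:150236458-150236757 for Eno1 and chrX:106186850-106187149 for Pgk1, all on the plus strand.
Ldha promoter: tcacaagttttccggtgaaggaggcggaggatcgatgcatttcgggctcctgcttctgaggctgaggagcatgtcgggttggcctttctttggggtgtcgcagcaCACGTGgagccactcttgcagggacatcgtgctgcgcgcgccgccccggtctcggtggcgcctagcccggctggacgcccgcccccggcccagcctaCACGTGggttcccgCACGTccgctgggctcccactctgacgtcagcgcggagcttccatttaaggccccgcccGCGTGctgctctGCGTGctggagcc
Eno1 promoter: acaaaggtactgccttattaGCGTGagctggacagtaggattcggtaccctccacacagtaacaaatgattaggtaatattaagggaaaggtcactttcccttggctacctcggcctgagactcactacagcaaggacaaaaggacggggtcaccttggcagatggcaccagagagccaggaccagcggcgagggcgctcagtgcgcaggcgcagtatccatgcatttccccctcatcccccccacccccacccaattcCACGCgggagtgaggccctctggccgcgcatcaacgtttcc
Pgk1 promoter: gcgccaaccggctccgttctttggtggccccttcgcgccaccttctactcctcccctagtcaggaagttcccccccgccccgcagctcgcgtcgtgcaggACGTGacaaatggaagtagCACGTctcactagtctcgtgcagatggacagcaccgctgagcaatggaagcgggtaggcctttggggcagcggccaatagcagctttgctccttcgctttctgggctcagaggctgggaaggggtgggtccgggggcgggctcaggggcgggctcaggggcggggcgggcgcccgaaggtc
The Ldha window held 5 matches to ACGTG, 2 to GCGTG and 2 to CACGTG. The Pgk1 window held 2 to ACGTG and the Eno1 window 2 to GCGTG, while those of Pkm and Tpi1, which were lower too, held none. Pcx, with the largest drop of all members, held 3 matches to ACGTG and 1 to CACGTG. Pgam1 held 1 to ACGTG and 2 to GCGTG, Pdk3 held 1 and 3, and Tkt held 1 to GCGTG. Pdk2, the member that lay higher without overlap, held 2 to ACGTG, both from 1 CACGTG. A match is a stretch of letters and not a site of binding.

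Glucose enters through the transporter Slc2a1 and is trapped by hexokinases. Slc2a1 had 10.1, 12.2 and 16.2 CPM in KO 1 to 3 and 13.5, 12.4 and 13.3 CPM in WT 1 to 3 (log2 fold change -0.02 ± 0.18 SE). Hk1, the widely expressed hexokinase, had 24.1, 28.4 and 19.5 CPM in KO against 28.05, 27.5 and 21.3 CPM in WT (-0.10 ± 0.17). Groups overlapped for both, and 0 of the 3 genes of this step had an unadjusted p under 0.05. Hk2, the inducible hexokinase, was the most uneven member and is named for that after its values were seen. It had 5.23, 5.95 and 15.4 CPM in KO against 10.3, 8.90 and 9.92 CPM in WT, so that KO 3 lay above every WT library and the other KO libraries below. Without KO 3 its log2 fold change was -0.79, and without KO 1 it was 0.14.

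In upper glycolysis, from glucose 6-phosphate to the triose phosphates, 1 of 7 genes had a lower level at unadjusted p under 0.05 (14.3%, against 6.97% of all genes) and 0 a higher one (against 5.64%). That gene was Tpi1, which interconverts the triose phosphates. It had 80.6, 83.2 and 78.1 CPM in KO 1 to 3 against 92.6, 101.5 and 102.2 CPM in WT 1 to 3. All KO libraries lay under the lowest WT library, and the KO values were tight (log2 fold change -0.29 ± 0.08 SE, edgeR adjusted p = 0.243). Pfkl, the liver-type phosphofructokinase, had 34.1, 32.8 and 30.7 CPM in KO against 35.6, 34.9 and 37.4 CPM in WT. Its groups did not overlap either, but the gap between the nearest libraries was small (-0.15 ± 0.09, adjusted p = 0.555).

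The abundant genes of this stage overlapped between groups. Gpi1, glucose 6-phosphate isomerase, had 149.0, 149.5 and 174.8 CPM in KO against 155.4, 155.3 and 157.3 CPM in WT (log2 fold change 0.02 ± 0.09, -0.01 with upper-quartile scaling). Aldoa, the main aldolase, had 126, 167 and 152 CPM in KO against 130.4, 132.7 and 130.4 CPM in WT (0.18 ± 0.11, adjusted p = 0.559). KO 1 lay below all WT libraries for Aldoa and the other KO libraries lay above them. Pfkm, Pfkp and Aldoc, the muscle and platelet phosphofructokinases and the brain-type aldolase, had overlapping groups. Pfkm averaged 23.5 CPM in both, Pfkp and Aldoc had log2 fold changes of 0.08 and -0.21, and on the TPM scale Pfkp turned to -0.16.

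Lower glycolysis runs from glyceraldehyde 3-phosphate to pyruvate. Of its 6 genes, 4 were lower in KO at unadjusted p under 0.05 (66.7%, against 6.97% of all genes) and 0 higher, with a median log2 fold change of -0.25. Summed over the 6 genes, CPM were 606, 698 and 632 in KO 1 to 3 against 760, 753 and 774 in WT 1 to 3. KO 2 came nearest to WT.

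Eno1, the broadly expressed enolase, had 132, 136 and 116 CPM in KO against 161, 161 and 171 CPM in WT. The lowest WT library was above the highest KO library by more than the spread of either group, and of all members Eno1 had the smallest p (log2 fold change -0.36 ± 0.09, adjusted p = 0.222). Pgk1, phosphoglycerate kinase, which makes the first ATP of this stage, had 63.5, 83.0 and 65.8 CPM in KO against 84.7, 84.8 and 96.5 CPM in WT. KO 2 lay just under the WT libraries, and the difference was -0.32 ± 0.12 (adjusted p = 0.328). Pgam1, phosphoglycerate mutase, had 64.9, 75.5 and 60.2 CPM in KO against 79.6, 76.2 and 81.4 CPM in WT, and here too KO 2 came nearest to WT (-0.24 ± 0.10, adjusted p = 0.386). Pkm, pyruvate kinase, had 169, 168 and 189 CPM in KO against 208, 212 and 211 CPM in WT. Here KO 3 came nearest to WT, whose libraries were almost equal (-0.26 ± 0.08, adjusted p = 0.267).

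Gapdh, glyceraldehyde 3-phosphate dehydrogenase, did not separate by itself. It had 167, 226 and 189 CPM in KO against 218, 208 and 206 CPM in WT, with KO 2 above every WT library (-0.12 ± 0.12, adjusted p = 0.732). Its count is uncertain, because 92.1% of the 31-base words of its main transcript also stand in transcripts of other genes. The nearest copy, Gm7336, was assigned reads equal to 31.04% of those of Gapdh. Gm7336 had 51.9, 42.4 and 57.2 CPM in KO against 67.7, 74.0 and 80.0 CPM in WT. The 2 together, a sum formed after their values were seen, came to 218, 269 and 246 CPM in KO against 285, 282 and 286 CPM in WT, and these groups did not overlap (exact permutation p = 0.1, two-sided, the smallest that 3 against 3 libraries can give). Eno2, the neuronal enolase, was low, at 9.10 to 12.1 CPM in KO against 7.60 to 10.98 CPM in WT (0.16 ± 0.18).

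**Figure D2:**
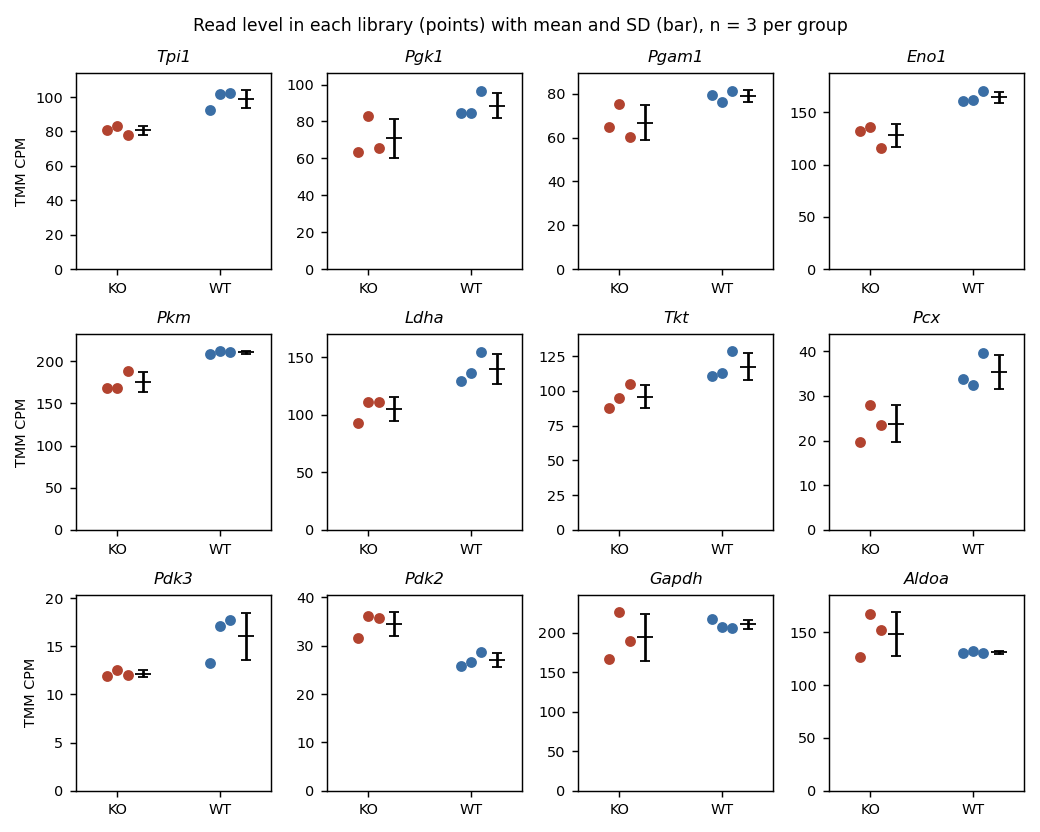
TMM-scaled CPM of 12 members in each library (points; KO left, WT right) with the mean and SD of 3 libraries beside them; each axis starts at 0. The 9 members with an unadjusted p under 0.05 and a lower level stand beside Pdk2, which was higher, and Gapdh and Aldoa, whose groups overlap.

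Other lower members share words with other genes too. Eno1, Pgk1, Pkm, Pgam1, Ldha and Tpi1 share 77.2, 68.3, 48.5, 42.1, 39.2 and 18.2% of their 31-base words, while the closest copy of each was assigned reads equal to at most 0.298% of those of the member. Tkt, Pcx, Pdk2 and Pdk3 were among 17 members that share no such word.

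Lactate genes split. Ldha, the lactate dehydrogenase subunit that favours lactate formation, had 93.3, 111 and 111 CPM in KO against 129, 136 and 155 CPM in WT. All KO libraries lay below the lowest WT library, and the log2 fold change was -0.41 ± 0.11 (adjusted p = 0.234). Ldhb, the heart-type subunit, is named after its values were seen, since KO 3 alone stood high. It had 12.9, 11.3 and 21.9 CPM in KO against 11.8, 14.0 and 13.7 CPM in WT (0.22 ± 0.24, or -0.12 without KO 3). The lactate exporter Slc16a1 overlapped between groups, at 37.2, 35.3 and 34.8 CPM in KO against 36.1, 43.4 and 30.1 CPM in WT (-0.03 ± 0.14). Slc16a3, the exporter of highly glycolytic cells, was low, at 2.78 to 4.32 CPM in KO against 3.56 to 5.83 CPM in WT (-0.39 ± 0.27).

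Pkm makes 2 enzymes from 1 gene. The M1 form, typical of muscle and brain, takes exon 9, and the M2 form, typical of growing and many adult tissues, takes exon 10 in its place. The exons are shown because they decide how reads can be told apart. They lie at chr9:59675029-59675195 and chr9:59675568-59675734 (GRCm38, plus strand), are 167 bases long each, and are equal at 103 bases and different at 64 (61.7% identity). Capitals mark the bases that differ.
Pkm exon 9 (M1): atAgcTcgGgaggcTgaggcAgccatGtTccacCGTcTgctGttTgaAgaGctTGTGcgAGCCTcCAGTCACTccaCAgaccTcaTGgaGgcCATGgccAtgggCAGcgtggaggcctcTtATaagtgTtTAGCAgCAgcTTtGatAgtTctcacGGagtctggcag
Pkm exon 10 (M2): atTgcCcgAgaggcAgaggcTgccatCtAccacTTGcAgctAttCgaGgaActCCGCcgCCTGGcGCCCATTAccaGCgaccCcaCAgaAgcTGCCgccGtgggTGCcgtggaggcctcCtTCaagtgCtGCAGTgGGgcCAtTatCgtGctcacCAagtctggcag
The M2 transcript led in every library. It stood at 78.2, 71.5 and 88.5 TPM (the authors' unit of transcript abundance, scaled by length and depth) in KO 1 to 3 and 93.6, 103 and 84.4 TPM in WT 1 to 3, while the M1 transcript stood at 12.6, 7.85 and 14.0 TPM in KO and 13.5, 20.2 and 11.9 TPM in WT. M1 therefore made up 12.5 ± 2.23% of the pair in KO and 13.8 ± 2.27% in WT (SD, n = 3 libraries, two-sided exact permutation p = 0.6). The groups overlapped, and a difference in splicing was not detectable with 3 libraries a group. These transcripts held 91.7 to 93.2% of the Pkm reads in KO and 94.1 to 95.3% in WT.

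The PFKFB enzymes make and remove fructose 2,6-bisphosphate, the strongest activator of phosphofructokinase. None of the 4 had an unadjusted p under 0.05. Pfkfb2 had 27.7, 31.3 and 30.8 CPM in KO against 26.3, 29.0 and 27.7 CPM in WT (log2 fold change 0.11 ± 0.10). Pfkfb3, the form with the strongest kinase activity, had 16.2, 15.9 and 28.5 CPM in KO against 14.3, 21.2 and 22.0 CPM in WT (0.07 ± 0.26). KO 3 was again the highest of the 6. Pfkfb1 and Pfkfb4 reached at most 3.55 and 8.58 CPM in any library, with log2 fold changes of -0.29 and -0.07.

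Subunits of the pyruvate dehydrogenase complex differed little in mean level. Pdha1, its catalytic alpha subunit, had 90.8, 95.5 and 98.3 CPM in KO against 82.7, 90.9 and 89.9 CPM in WT (0.11 ± 0.08). Pdhb, the beta subunit, had 49.1, 58.2 and 60.5 CPM in KO against 53.5, 55.5 and 53.5 CPM in WT (0.05 ± 0.10). Groups overlapped for both, and Dlat, the acetyltransferase core, had a log2 fold change of 0.01 (-0.01 with upper-quartile scaling and -0.13 on the TPM scale).

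The kinases that switch this complex off lay on both sides of WT. Pdk2, found in most tissues, had 31.7, 36.1 and 35.7 CPM in KO against 25.9, 26.7 and 28.6 CPM in WT. All KO libraries lay over the highest WT library, by a log2 fold change of 0.35 ± 0.10 (adjusted p = 0.245). Pdk3 had 11.9, 12.6 and 11.97 CPM in KO against 13.3, 17.2 and 17.8 CPM in WT. WT 1 was near the KO libraries, and the log2 fold change was -0.40 ± 0.14 (adjusted p = 0.301). Pdk1, a known target of hypoxia-inducible factor, had 49.0 to 57.1 CPM in KO against 46.5 to 53.9 CPM in WT (0.10 ± 0.10).

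Pyruvate carboxylase, which feeds oxaloacetate to the citric acid cycle and is abundant in beta cells, had the largest fold change of all members. Pcx stood at 19.8, 27.9 and 23.6 CPM in KO 1 to 3 and 33.7, 32.5 and 39.6 CPM in WT 1 to 3. The groups did not overlap, and the mean was lower by 32.6% in KO (log2 fold change -0.57 ± 0.15, adjusted p = 0.224). Pck2, the mitochondrial enzyme that turns oxaloacetate into phosphoenolpyruvate, overlapped between groups, at 74.2, 80.2 and 97.4 CPM in KO against 82.2, 75.4 and 91.2 CPM in WT (0.02 ± 0.12, or -0.0038 with upper-quartile scaling).

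All 4 pentose phosphate genes had a lower mean in KO (against 48.9% of all genes). Of them 1 had an unadjusted p under 0.05 (25%, against 6.97% of all genes). Tkt, transketolase, which links the pathway back to glycolysis, had 87.9, 94.8 and 105 CPM in KO against 111, 113 and 128 CPM in WT. The groups did not overlap, though KO 3 came close to WT 1 (-0.29 ± 0.10, adjusted p = 0.293). Taldo1, transaldolase, its partner in the non-oxidative branch, had 59.97, 89.2 and 59.95 CPM in KO against 85.6, 79.6 and 97.8 CPM in WT. KO 2 lay within the WT range and the other KO libraries well below it (-0.33 ± 0.17, adjusted p = 0.472). G6pdx and Pgd, the NADPH-forming dehydrogenases, overlapped between groups, with log2 fold changes of -0.20 and -0.05. The glycerol phosphate enzymes, which pass NADH electrons to mitochondria, overlapped as well. Gpd2 had 25.9, 27.6 and 23.7 CPM in KO against 23.1, 25.8 and 27.7 CPM in WT, and Gpd1 had 7.30, 11.6 and 12.9 CPM in KO against 11.1, 8.70 and 9.30 CPM in WT.

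**Figure D3:**
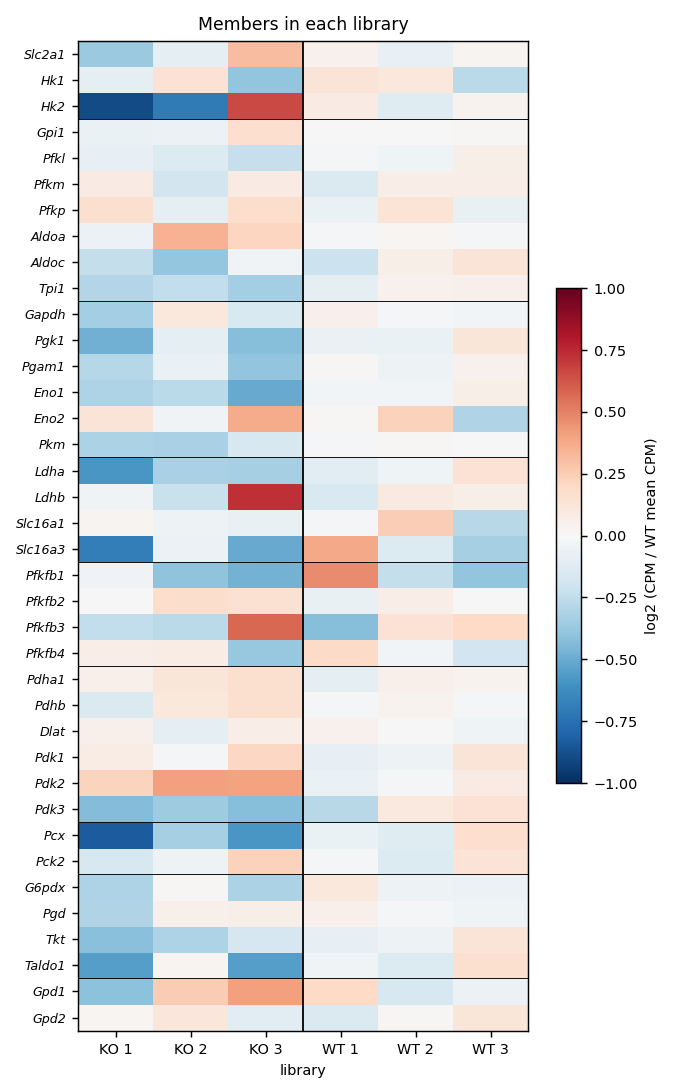
Log2 of the CPM in each library over the WT mean, for all 38 members (rows, in pathway order) and 6 libraries (columns, KO left of the black line); blue is lower and red higher. The rows from Pgk1 to Ldha, without Eno2, are blue in the KO columns, palest in KO 2 for Pgk1 and Pgam1, and Hk2, Ldhb and Pfkfb3 are darkest red in KO 3.

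Levels of different genes can be compared per length, in TPM. Gapdh led at 286 ± 18.7 TPM in KO and 299 ± 32.5 TPM in WT. In KO the next were Aldoa (145 ± 14.6 TPM), Gpi1 (121 ± 11.2 TPM), Pkm (107 ± 12.3 TPM), Ldha (90.6 ± 8.36 TPM) and Eno1 (88.2 ± 6.94 TPM). In WT the same genes lay closer together. Aldoa was at 123 ± 13.3, Pkm at 122 ± 13.6, Ldha at 117 ± 8.61, Gpi1 at 116 ± 10.2 and Eno1 at 111 ± 10.3 TPM. Aldoa still exceeded Eno1 in every WT library. Pcx was far below these genes, at 7.78 ± 0.616 TPM in KO and 11.4 ± 0.523 TPM in WT, though several members were lower still. Hk2, at 2.12 ± 1.55 TPM in KO and 2.18 ± 0.231 TPM in WT, stood at the low end with Pfkfb1 and Slc16a3.

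Whether one form of an enzyme gave way to another was asked with shares of the summed TPM, for 15 genes in 8 families. Groups did not overlap for 4 of the 15 shares, each with an exact permutation p of 0.1 (two-sided, adjusted p = 0.375 over the 15), the smallest this design allows. No such shares were formed for other genes, so this count has no background to be read against. Shares within a family are tied to each other, so those of Pdk2 and Pdk3 are not separate results. Among the kinases, Pdk2 made up 43.4, 50.6 and 40.5% in KO against 40.5, 38.7 and 36.2% in WT, and Pdk3 made up 19.0, 14.9 and 13.1% in KO against 21.9, 22.3 and 20.5% in WT. For Pdk2, KO 3 and WT 1 differed only in the second decimal. Ldhb made up 14.98, 11.4 and 20.3% of lactate dehydrogenase transcripts in KO and 10.6, 11.4 and 10.3% in WT. KO 2 was almost level with WT 2. Aldoc made up 7.49, 5.46 and 7.29% of the aldolases in KO and 7.59, 8.19 and 8.59% in WT, a small gap. Eno1, Ldha and Aldoa each kept the larger share of their family in every library.

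**Figure D4:**
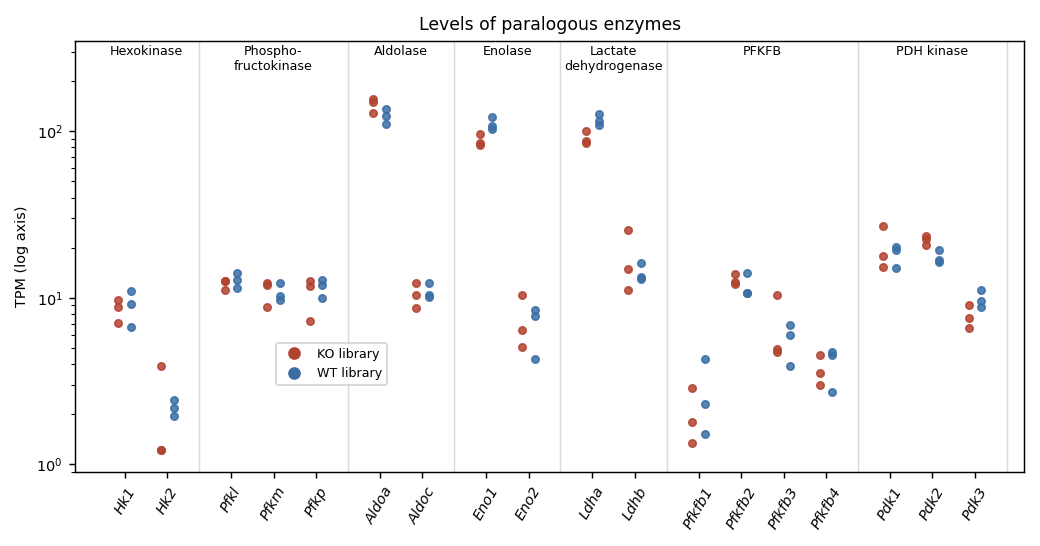
TPM of paralogous enzymes in each library on a log axis, by family; red points left of each tick are KO libraries and blue points right of it are WT libraries. Aldoa, Eno1 and Ldha exceed their partners in every library, while the phosphofructokinases lie close together.

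The microRNA that the KO mice lack is shown with its seed, bases 2 to 8, in capitals. It maps to chr11:28757018-28757039 on the plus strand (GRCm38.p6, mature sequence from RefSeq).
miR-216a-5p: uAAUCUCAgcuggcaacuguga
Sites that pair with the seed (TGAGATT or GAGATTA) were sought in the annotated 3' UTR of each member's main transcript. Of 38 members 3 held one (7.89%), against 2240 of 14890 genes tested (15%). Pdk1 and Gpd2 held 2 each and Pfkfb3 held 1. A single site from each is printed with TGAGATT in capitals.
Pdk1 site: aggatgagcgTGAGATTctctgggtccc
Gpd2 site: tagatctggtTGAGATTtggttacattt
Pfkfb3 site: cagggaacccTGAGATTcagagttagac
None of these 3 genes had an unadjusted p under 0.05, their log2 fold changes were 0.10, 0.01 and 0.07, and Gpd2 turned to -0.01 with upper-quartile scaling. The 9 lower members and Pdk2 held no match in the UTR searched, which says only that these letters are absent from it.

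Other genes of sugar metabolism outside the 38 were read next. Of 36 listed, 30 were tested, and their median log2 fold change was -0.05, with 11 above 0 and 19 below. At the level of single genes, 4 were higher at unadjusted p under 0.05 (13.3%, against 5.64% of all genes) and 1 was lower (3.33%, against 6.97%). Pdk4, the kinase induced by fasting, had 28.3, 59.1 and 34.2 CPM in KO against 20.8, 26.1 and 19.5 CPM in WT (log2 fold change 0.87 ± 0.26, adjusted p = 0.257). H6pd, the hexose 6-phosphate dehydrogenase of the endoplasmic reticulum, had 74.8, 70.2 and 99.1 CPM in KO against 64.4, 57.8 and 62.8 CPM in WT (0.40 ± 0.14, adjusted p = 0.291). For both, all KO libraries lay over the highest WT library. Eno3, the muscle enolase, and Ldhd, a mitochondrial D-lactate dehydrogenase, were higher by 0.38 ± 0.15 and 0.45 ± 0.19 (adjusted p = 0.335 and 0.392), also without overlap.

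G6pc2, the glucose 6-phosphatase subunit of beta cells, was the lower one. It had 45.3, 26.6 and 41.0 CPM in KO against 61.3, 66.3 and 67.7 CPM in WT (-0.79 ± 0.18, adjusted p = 0.206). Hkdc1, a hexokinase-like gene, lay lower without overlap (-0.41 ± 0.20, adjusted p = 0.449). Pgls, the 6-phosphogluconolactonase of the pentose phosphate pathway, was the most abundant gene of this list per length, and averaged 68.9 ± 1.38 TPM in KO against 71.4 ± 2.09 TPM in WT (SD, n = 3 each). In the malate-aspartate shuttle 0 of 7 genes had an unadjusted p under 0.05. Its most abundant gene per length, the mitochondrial malate dehydrogenase Mdh2, averaged 87.0 ± 5.42 TPM in KO against 91.6 ± 7.36 TPM in WT, and the carriers Slc25a11 and Slc25a13 lay lower without overlap (-0.19 and -0.29).

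Genes of the hypoxia response outside glycolysis were compared next. Of 18, 5 were higher at unadjusted p under 0.05 (27.8%, against 5.64% of all genes) and 1 was lower (5.56%, against 6.97%). Bnip3, which marks mitochondria for removal, had 22.7, 25.4 and 36.4 CPM in KO against 19.7, 18.0 and 16.7 CPM in WT (0.64 ± 0.18, adjusted p = 0.2499). Kdm3a, Ddit4, Epas1 and Mxi1 were higher by 0.28, 0.49, 0.27 and 0.31. Car9, the hypoxia-induced carbonic anhydrase, was lower, at 4.81, 2.90 and 3.85 CPM in KO against 6.49, 8.22 and 11.3 CPM in WT (-1.17 ± 0.27, adjusted p = 0.206). Vegfa, the most abundant of the list per length, had a log2 fold change of 0.28 with an unadjusted p of 0.0948 in edgeR.

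Over the libraries, lower glycolysis with Ldha had a median log2 level relative to the WT mean of -0.32, -0.09 and -0.33 in KO 1 to 3 and -0.02, -0.03 and 0.04 in WT 1 to 3. Cell cycle genes were lower in the same libraries, with 20 of 20 S phase genes and 20 of 20 genes of G2 and M phase below WT without overlap, against 10.3% of all genes. The S phase median was -0.55, -0.67 and -1.54 in KO 1 to 3 and between -0.07 and 0.05 in WT. The median for G2 and M phase was -0.50, -1.68 and -1.99 in KO 1 to 3 and between -0.20 and 0.19 in WT. Mki67, the proliferation marker, had 210, 131 and 69.4 CPM in KO against 258, 274 and 331 CPM in WT. The part of cell number or cycling in the lower glycolytic values was not tested.

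**Figure D5:**
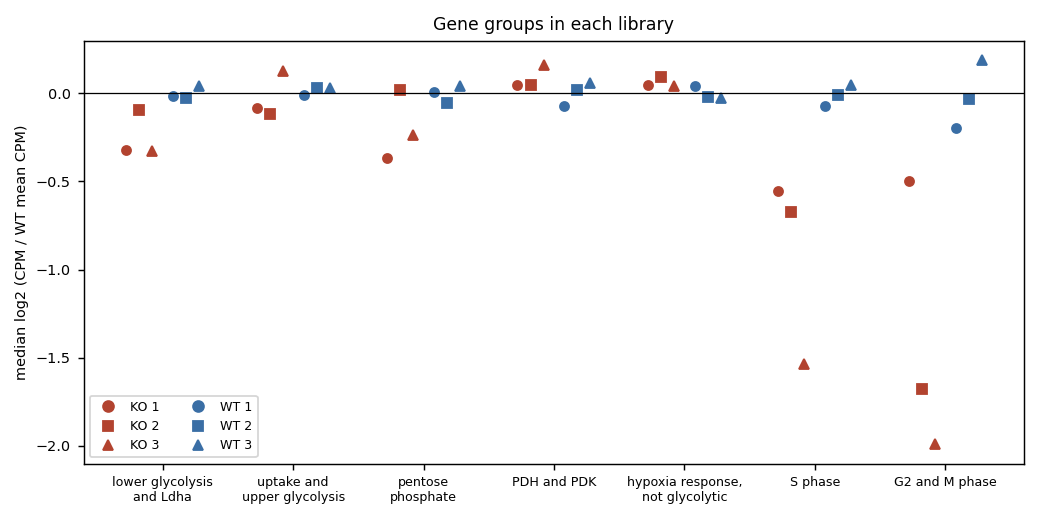
Median log2 of CPM over the WT mean in each library (KO in red left of WT in blue) for 4 groups of members and 3 other gene lists. KO 2 is nearest to WT in lower glycolysis, and KO 1 is nearest in both cell cycle lists.

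Markers of other cell types moved as follows. Beta cell markers summed to 4643, 4341 and 4643 CPM in KO against 5523, 6685 and 5697 CPM in WT, and 4 of 9 (Ins1, Ins2, Mafa and G6pc2) were lower at unadjusted p under 0.05 (44.4%, against 6.97% of all genes). Of the other beta cell markers, Slc2a2 and Slc30a8 had log2 fold changes of 0.28 and 0.25, and Pdx1, Iapp and Nkx6-1 of -0.33, -0.12 and -0.05. Acinar markers summed to 244744 to 302542 CPM in KO against 198784 to 285746 CPM in WT, with 0 of 10 at that threshold. Amy2a5 and Ctrb1 made up most of these sums. By mean, 3 of the 10 were higher in KO and 7 lower (against 48.9% of all genes), with a median log2 fold change of -0.22. Amy2a5 lay higher without overlap (against 9.06% of all genes), and Prss2 and Cel lay lower without overlap (against 10.3%). Mesenchymal markers ranged from 6446 to 10348 CPM in KO, lowest in KO 2, and from 9852 to 12030 CPM in WT. Of 8 mesenchymal markers, 2 (Pdgfra and Pdgfrb) were higher at that threshold and 2 (Col1a1 and Lum) were lower, against 5.64% and 6.97% of all genes. Endothelial markers stood at 628 to 664 CPM in KO against 536 to 626 CPM in WT, without overlap, and 3 of 7 (Pecam1, Kdr and Flt1) were higher at that threshold (42.9%, against 5.64% of all genes). Ductal and macrophage sums overlapped, at 629 to 741 and 316 to 413 CPM in KO against 669 to 802 and 405 to 415 CPM in WT. Skeletal muscle markers stayed at or below 6.88 CPM in KO against 13.3 CPM in WT. The part of these shifts in the members' values was not tested.

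With KO 2 and WT 1, the erythroid-rich pair, left out, the lower values were as large or larger for Eno1 (-0.42), Ldha (-0.51), Pgk1 (-0.49), Pgam1 (-0.34), Tpi1 (-0.36), Tkt (-0.33), Pdk3 (-0.55) and Pcx (-0.74), while Pkm was at -0.25 and Pdk2 at 0.28. Without KO 1, the library low in Y-linked genes, the same 9 lower members ranged from -0.45 (Pcx) to -0.22 (Pgam1), and 7 members had an unadjusted p under 0.05. Of these, 5 were lower (13.2% of members, against 8.13% of all genes) and 2 were higher (5.26%, against 6.74% of all genes). That fit called 1.82% of all genes lower and 0.529% higher, 368 in all, but 0 members. Of the 5 X-linked members, Pgk1 and Pdk3 were lower at unadjusted p under 0.05 in the main test with all libraries, and Pdha1, G6pdx and Pfkfb1 were not. That is 40% of them, against 21.2% of members outside X and 6.97% of all genes. DESeq2, which called 1.93% of all genes lower and 0.844% higher, called 3 members lower, namely Eno1 (adjusted p = 0.0307), Pcx (0.0315) and Ldha (0.0432), and 0 higher. Limma-voom called 0.0063% of all genes in each direction and 0 members.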

How the data were processed

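Whole pancreas from 6 mice (3 KO, 3 WT) was sequenced as mRNA with a stranded kit, per the labels' protocols. Per the submitters' processing notes, the tools were bcl2fastq, Salmon (0.13.1) and DESeq2 (1.24.0) and the build was mm10. No source used here names the transcript set. The deposited table of each library lists 116248 transcripts from Salmon, with estimated counts that are not normalized and with TPM values. A scaled gene table of the whole series, deposited too, was not used.

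Of the transcripts, 115995 matched GENCODE M21 by versioned identifier, and the rest held 0.0341 to 0.0458% of the reads. Estimated counts were summed per gene symbol and rounded to whole numbers (Python 3.11.15, pandas 2.3.3). Genes with 10 or more reads in 3 or more libraries were kept. Groups were compared by edgeR's quasi-likelihood test (edgeR 4.0.16, R 4.3.3) with TMM scaling and Benjamini-Hochberg adjustment over all 15872 genes, called at 0.05. Errors of means are SDs over 3 libraries, and errors of log2 fold changes are standard errors. The biological coefficient of variation was 18.4%, and depth was at least 20565387 reads a library. Libraries of a group differed far beyond sampling noise (chi-square per degree of freedom 22.3 to 47.8), so each counted as its own sample. Replicate numbers follow sample order and pair no samples.

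Shares of paralogues and Pkm forms were tested with exact permutation tests (scipy 1.17.1). The fits were tested on simulated data. Alternatives were other scaling factors, filters and tools (DESeq2 1.42.0, limma 3.58.1 with voom, and limma on log2(TPM + 1)), leaving out 31 digestive enzyme genes, and leaving out each library. Leaving out WT 1 and KO 2, the shared 31-base words and the sum of Gapdh and Gm7336 were added after the data had been seen. Members and lists were chosen with earlier results of these data known. Members were named in full where they were among the 2 most abundant of their role group by CPM, had an unadjusted p under 0.05 or did not overlap between groups. From the other lists at most 6 such genes, by smallest p, and the most abundant one by TPM were named. Aldoa sums 2 gene identifiers, the second with 0.578% of its reads.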

Additional observations from a re-analysis of the deposited data

How the results depend on the processing

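All 10 members with an unadjusted p under 0.05 and 11 others kept their direction in all 15 alternatives, and 17 members changed sign in at least 1. Genes called numbered 0 in the main test, 440 with DESeq2, 2 with limma-voom, 1 without a filter, and 1 without WT 1 and KO 2. Leaving out 1 library gave 0 to 368, the highest without KO 1, and the cause was not tested. Members called numbered 3 with DESeq2 and 0 otherwise. Members with an unadjusted p under 0.05 numbered 10 in the main test, 6 with limma on log2(TPM + 1), and 6 (without WT 3) to 13 (without KO 2) with 1 library left out. The share of all genes at this threshold was counted in the main test (5.64% higher and 6.97% lower) and without KO 1 (6.74% and 8.13%) only. Counts at this threshold from the other settings have no background to be read against. Members higher in KO without overlap numbered 1 in the main test, 2 without digestive enzymes, 5 without WT 1 and KO 2, and 1 to 7 with 1 library left out (7 without KO 1, 5 without KO 2, 3 without WT 2 or WT 3, 2 without WT 1). With fewer libraries, groups separate more easily. The share of all genes without overlap was counted in the main test only (9.06% higher and 10.3% lower). Counts without overlap from the other settings, higher or lower, therefore have no background to be read against. Members lower without overlap ranged from 9 to 14 with 1 library left out, and the members' median log2 fold change from -0.11 to -0.03.

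Signs turned for 17 members, with main values from -0.29 (Pfkfb1) to 0.22 (Ldhb), and the cause was not tested. With upper-quartile factors Gpi1 stood at -0.0057, Dlat at -0.0131, Pck2 at -0.0038 and Gpd2 at -0.0075. On the log2(TPM + 1) scale Slc2a1 stood at 0.0386, Pfkm at 0.0227, Pfkp at -0.1588 and Dlat at -0.1268. Without WT 1 and KO 2, Slc2a1 stood at 0.0295, Hk2 at 0.1287, Pfkm at 0.0116, Pfkfb1 at 0.0700 and Gpd2 at -0.1137. With 1 library left out, log2 fold changes ran from -0.2273 to 0.122 for Slc2a1, -0.2365 to 0.0322 for Hk1, -0.7943 to 0.1416 for Hk2, -0.063 to 0.0569 for Gpi1, -0.0671 to 0.0783 for Pfkm, -0.1221 to 0.3976 for Ldhb, -0.1485 to 0.1115 for Slc16a1, -0.4443 to 0.0223 for Pfkfb1, -0.2595 to 0.2165 for Pfkfb3, -0.1486 to 0.0707 for Pfkfb4, -0.0134 to 0.133 for Pdhb, -0.0215 to 0.0539 for Dlat, -0.1014 to 0.1006 for Pck2, -0.1131 to 0.0578 for Pgd, -0.0401 to 0.3369 for Gpd1 and -0.0556 to 0.0797 for Gpd2. The difference in M1 share of Pkm ran from -2.03 to -0.0201 percentage points with 1 library left out.

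No paired analysis was possible because the labels give no replicate numbers shared between KO and WT. With 3 mice a group the exact tests of shares cannot go below p = 0.1. KO 1 was the only library low in Y-linked genes, so for it sex and genotype cannot be told apart. Reads of near-identical copies are divided by Salmon, which limits Gapdh most. TPM depends on Salmon's lengths and on the most abundant transcripts of each library, so small shifts between the CPM and TPM scales are not read as changes.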
